A study of Homo sapiens with 5 samples.

Results

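The promoters described here carried BRG1 and ACTL6A and had no NRF2 peak in SNU638, a long-established cell line from a human gastric cancer. They were chosen on the deposited peak lists: a BRG1 peak was taken when a transcription start site (TSS) of a GENCODE v44 protein-coding transcript was at most 1 kb away and when it shared at least 1 bp with an ACTL6A peak, and shared no base with an NRF2 peak or with a peak of the IgG replicate 2 library. Of 48793 BRG1 peaks, 15165 lay at a TSS, and 2732 of these met the rule (18.0%, 95% Wilson interval 17.4 to 18.6%). The remaining TSS peaks were 3489 with BRG1, ACTL6A and NRF2, 1372 with BRG1 and NRF2 but no ACTL6A, 7558 with BRG1 alone, and 14 that touched the IgG replicate 2 list. The promoters belonged to 2943 of 19689 protein-coding genes, which is 14.9% of the genes, and 2391 of the 2732 peaks lay near 1 gene only. Because peak calls chose the peaks, their overlaps and heights are given as a description and are not tested.

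The peaks came from CUT&Tag, in which an antibody guides a transposase to cut and tag the DNA close to its target. One group of untreated cells was profiled with 1 library per antibody: anti-BRG1, anti-ACTL6A and anti-NRF2, beside 2 libraries with control IgG. No antibody was repeated, so the spread between libraries is unknown, no p-value is given, and each interval covers counting error with peaks taken as independent. The study's reporting summary gives read totals for the libraries, with the NRF2 library the deepest. The lists themselves hold peaks and no totals, and no value here was scaled by depth, but the fragments at each summit could be recovered from the deposited values. The median peak held 10 fragments for BRG1, 6 for ACTL6A and 17 for NRF2. The weakest NRF2 peak had 8 fragments, against 3 for BRG1 and for ACTL6A, and the lowest number expected by the caller was 1.48 for NRF2, 0.271 for BRG1 and 0.182 for ACTL6A. "No NRF2" therefore means no called peak, with a higher floor than that of the other antibodies.

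BRG1, encoded by SMARCA4, is an ATPase that drives the SWI/SNF (BAF) complex, which slides or ejects nucleosomes and so opens promoters and enhancers to transcription factors. ACTL6A (BAF53A) is an actin-like subunit of this complex and also sits in the INO80 and TIP60 complexes, so an ACTL6A peak need not mark SWI/SNF. NRF2, encoded by NFE2L2, is the basic leucine zipper factor of the oxidative stress response. It pairs with small MAF proteins on the antioxidant response element (ARE) and drives genes of glutathione synthesis such as GCLC, GCLM and SLC7A11.

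To show what these promoters look like, stretches of hg38 from inside the bases shared by the BRG1 and ACTL6A peaks and outside annotated exons are printed on the strand of the gene. The FAM117A, GCA and HINFP stretches are shown because they were among the strongest peaks and hold CCAAT boxes (capitals, CCAAT or its complement ATTGG), the letters bound by NF-Y. GCSH shows an ETS site (CCGGAAG), GCLC and ANXA2 show an AP-1 site (TGANTCA, the FOS and JUN site), and FBXO27 an ARE core (TGACNNNGC). GCLM and SLC7A11 are shown as glutathione genes without NRF2, with GC boxes (GGGCGG) and the looser ARE letters (TGANNNNGC) in capitals. In SPATC1L the capitals mark the first copy of a tandem repeat. Every TGACNNNGC also reads as TGANNNNGC, and an AP-1 site can lie inside either. Over 200 bp at all 19061 MANE Select gene starts, 25.3% held CCAAT, 11.3% the ETS site, 3.02% the AP-1 site, 10.0% the ARE core, 31.4% the looser letters and 54.4% the GC box. A match is a match of letters and not a measured binding site.
FAM117A: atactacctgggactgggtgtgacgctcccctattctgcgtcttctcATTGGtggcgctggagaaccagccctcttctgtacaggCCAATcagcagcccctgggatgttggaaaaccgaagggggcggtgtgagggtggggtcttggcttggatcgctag
GCA: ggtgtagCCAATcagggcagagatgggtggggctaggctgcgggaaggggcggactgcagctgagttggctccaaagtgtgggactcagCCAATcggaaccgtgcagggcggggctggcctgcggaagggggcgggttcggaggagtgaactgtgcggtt
HINFP: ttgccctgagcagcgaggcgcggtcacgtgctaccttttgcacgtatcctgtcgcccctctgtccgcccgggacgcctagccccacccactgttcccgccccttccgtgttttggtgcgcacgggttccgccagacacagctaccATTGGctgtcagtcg
GCSH: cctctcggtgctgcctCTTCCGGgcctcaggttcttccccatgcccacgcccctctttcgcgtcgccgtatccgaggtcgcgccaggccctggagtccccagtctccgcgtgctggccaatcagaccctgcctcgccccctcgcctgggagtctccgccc
ANXA2: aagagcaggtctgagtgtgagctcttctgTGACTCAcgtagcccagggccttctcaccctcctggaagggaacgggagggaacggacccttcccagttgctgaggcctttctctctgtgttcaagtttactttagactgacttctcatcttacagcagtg
GCLC: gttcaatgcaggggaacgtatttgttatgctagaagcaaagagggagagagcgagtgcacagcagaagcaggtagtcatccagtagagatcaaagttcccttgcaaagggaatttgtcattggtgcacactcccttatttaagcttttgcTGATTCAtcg
GCLM: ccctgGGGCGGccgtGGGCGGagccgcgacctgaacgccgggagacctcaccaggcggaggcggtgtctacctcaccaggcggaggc
SLC7A11: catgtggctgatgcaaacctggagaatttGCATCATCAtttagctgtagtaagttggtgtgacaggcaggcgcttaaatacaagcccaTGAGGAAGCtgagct
FBXO27: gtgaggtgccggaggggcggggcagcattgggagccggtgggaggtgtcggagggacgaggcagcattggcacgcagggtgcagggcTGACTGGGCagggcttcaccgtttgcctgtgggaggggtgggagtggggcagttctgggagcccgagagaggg
SPATC1L: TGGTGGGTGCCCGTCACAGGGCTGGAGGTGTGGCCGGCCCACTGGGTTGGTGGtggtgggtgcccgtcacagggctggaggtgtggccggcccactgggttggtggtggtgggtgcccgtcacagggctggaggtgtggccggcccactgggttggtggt

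The FAM117A stretch lay on the minus strand at chr17:49764290-49764449, upstream of the TSS, with its CCAAT boxes starting at -271 and -233 bp. GCA (chr2:162343972-162344131, plus strand) had boxes at -153 and -71 bp, and HINFP (chr11:119121377-119121536, plus strand) had a box at -58 bp. GCSH lay at chr16:81096437-81096596 on the minus strand, and it also held a CCAAT box. ANXA2 (chr15:60374779-60374938, minus strand) had its AP-1 site at -404 bp. The GCLC stretch (chr6:53615787-53615946, minus strand) lay in an intron of GCLC-203, a transcript with a far upstream start near which lncRNA transcripts of the same strand also begin, and its AP-1 site lay 1174 bp past that start. GCLM (chr1:93909705-93909791, minus strand) began 335 bp before its TSS, SLC7A11 (chr4:138242350-138242452, minus strand) 103 bp before, and FBXO27 (chr19:39031539-39031698, minus strand) held its ARE core 938 bp downstream. In the SPATC1L stretch (chr21:46184507-46184666, minus strand) a unit of 53 bp was repeated 3 times and was 100% identical from copy to copy.

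The promoters without NRF2 had lower BRG1 and ACTL6A peaks than those with all 3 proteins and higher BRG1 peaks than those with BRG1 alone. Their median BRG1 peak had 21 fragments at the summit (middle 50% of peaks 14 to 32, range 3 to 135) and an 8.80-fold enrichment, defined as fragments over those expected with 1 added to both. Where NRF2 was also present the medians were 33 fragments and 11.4-fold, at BRG1 and NRF2 promoters they were 21 fragments and 7.58-fold, and at promoters with BRG1 alone 13 fragments and 5.32-fold. The ACTL6A peak had a median of 8 fragments (middle 50% 6 to 11, range 3 to 64) and 5.89-fold enrichment, against 12 fragments and 7.61-fold with NRF2 and a median of 6 fragments over the whole ACTL6A list. BRG1 peaks were 466 bp wide at the median and shared 215.5 bp with the ACTL6A peak. At 1678 promoters (61.4%) the summits of both peaks lay within 100 bp of each other, and at 1432 (52.4%) the BRG1 peak covered the ACTL6A peak whole.

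The strongest BRG1 peaks of the class included those at BRD3OS (129 fragments, -log10 q 141.9), SPATC1L (132 fragments), FAM117A (135), BICDL1 (107) and TRIOBP (109), and also HEXD, OSBPL2, REX1BD and FBXO27. TRIOBP binds and stabilises F-actin, HEXD is a hexosaminidase, and OSBPL2 is an oxysterol-binding protein. The ACTL6A signal at these peaks was uneven: SPATC1L had 64 ACTL6A fragments, FAM117A 49, BRD3OS 34, BICDL1 22 and HEXD only 5. The strongest by ACTL6A included SPATC1L (64 fragments), AHRR (57 fragments), FAM117A (49), GCA (47), OSBPL2 (39), AP3D1 (39), UTP6 (38), HINFP (35) and ZNG1F (34). AHRR is a repressor of the aryl hydrocarbon receptor, AP3D1 a subunit of the AP-3 adaptor, UTP6 a processome protein for ribosomal RNA, and HINFP an activator of histone H4 genes. ZNG1F has near-identical copies elsewhere in the genome, so reads counted there may come from a copy.

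Some of these strong peaks stood on repeated DNA. Over the 200 bp at the summit, 100% of the 12-letter words recurred within the window at SPATC1L and AHRR, and 48.7% at BRD3OS. A window with at least 25% recurring words was found at 25 of the 2732 promoters (0.915%), at 3 of the 50 with the highest BRG1 -log10 q, and at 5 of the 50 with the highest ACTL6A -log10 q (10.0%, 4.35 to 21.4%). At promoters with all 3 proteins such windows were at 3 of the first 50 by either antibody and at 0.545% of all 3489, and at promoters with BRG1 alone at 1 of the first 50 by BRG1 and at 0.926% of all 7558. Whether the number of copies in SNU638 equals that in hg38 was not tested.

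The stronger the BRG1 peak, the more often an NRF2 peak lay beneath it. Of 6221 promoter peaks with BRG1 and ACTL6A and no IgG replicate 2 peak, 43.9% (42.7 to 45.2%) lacked NRF2. With 10 or fewer BRG1 fragments 371 of 470 peaks lacked NRF2 (78.9%, 75.02 to 82.4%), with 21 to 30 fragments 651 of 1441 did (45.2%), and above 60 fragments 108 of 668 did (16.2%, 13.6 to 19.2%). The same held for ACTL6A, from 75.2% without NRF2 at 3 or 4 ACTL6A fragments to 10.0% at 25 or more. BRD3OS, with 129 BRG1 fragments, was among the 108 above 60 fragments, and GCLM, with 48, among the 288 of 1011 peaks with 41 to 60 fragments that lacked NRF2 (28.5%). How far the higher floor of the NRF2 list sets this gradient was not tested.

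Most of these promoters were far from any NRF2 peak. The nearest NRF2 peak was 61114.5 bp away at the median, and 157 of the 2732 (5.75%) had one within 1000 bp. Of the 2943 genes, 359 (12.2%) also had an NRF2 peak within 1 kb of a TSS, at the same or another start. ACTL6A itself was of this kind. Its main start carried BRG1 (38 fragments), ACTL6A (32 fragments) and NRF2, while a separate BRG1 peak of 23 fragments with 9 ACTL6A fragments had its summit 606 bp downstream of the nearest TSS and lay 122 bp from the NRF2 peak.

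BRG1 summits at these promoters tended to lie just upstream of the TSS. The median summit was 33 bp upstream, 58.7% (56.9 to 60.6%) were upstream, and 72.3% of the peaks had a TSS inside them. At promoters with BRG1 alone 48.5% of summits were upstream, a difference of 10.2 percentage points (Newcombe 95% interval 8.06 to 12.4). At promoters with all 3 proteins 65.1% were upstream, and the class minus these was -6.40 points (-8.83 to -3.97). Summits more than 500 bp from the TSS made up 13.2% of the class, against 5.70% with all 3 proteins and 24.3% with BRG1 alone.

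Promoters shared by genes on both strands were less common than where NRF2 was present. A pair of protein-coding genes on opposite strands lay within 1 kb of 293 of the 2732 peaks (10.7%, 9.62 to 11.9%), against 749 of 3489 (21.5%, 20.1 to 22.9%) with all 3 proteins and 6.66% with BRG1 alone. The gap was also present at equal BRG1 signal: among peaks with 21 to 30 BRG1 fragments the shares were 10.6% without and 21.5% with NRF2, and above 60 fragments 7.41% and 21.8%. Named examples without NRF2 are FAU with MRPL49 and PSMD13 with SIRT3. A lncRNA start on the other strand was found at 19.3%, against 25.0% with all 3 proteins.

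The DNA under the summits was less often CpG island-like than where NRF2 was present. A 200 bp window with GC of at least 50% and an observed to expected CpG ratio of at least 0.6 was found at 1876 promoters (68.7%, 66.9 to 70.4%), against 84.5% with all 3 proteins, a difference of -15.9 points (-18.0 to -13.7). BRG1 and NRF2 promoters were at 81.9%, promoters with BRG1 alone at 65.2%, and 200 bp around all 19061 MANE Select gene starts at 69.0%. Within peaks of 31 to 40 BRG1 fragments the gap remained, with 71.5% (66.7 to 75.9%) without NRF2 and 85.6% (82.8 to 88.0%) with it. Above 60 fragments it was 63.9% against 79.5%. Set against BRG1 alone, the class was higher at 10 or fewer fragments, 57.1% against 53.2%. It was lower at stronger peaks, with 71.5% against 76.2% at 31 to 40 and 70.5% against 83.3% at 41 to 60. Above 60 fragments BRG1 alone was at 83.9%, from 31 peaks. The median GC content was close, 64.5% without and 65.5% with NRF2, and the median observed to expected CpG ratio was 0.737 against 0.800.

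**Figure D1:**
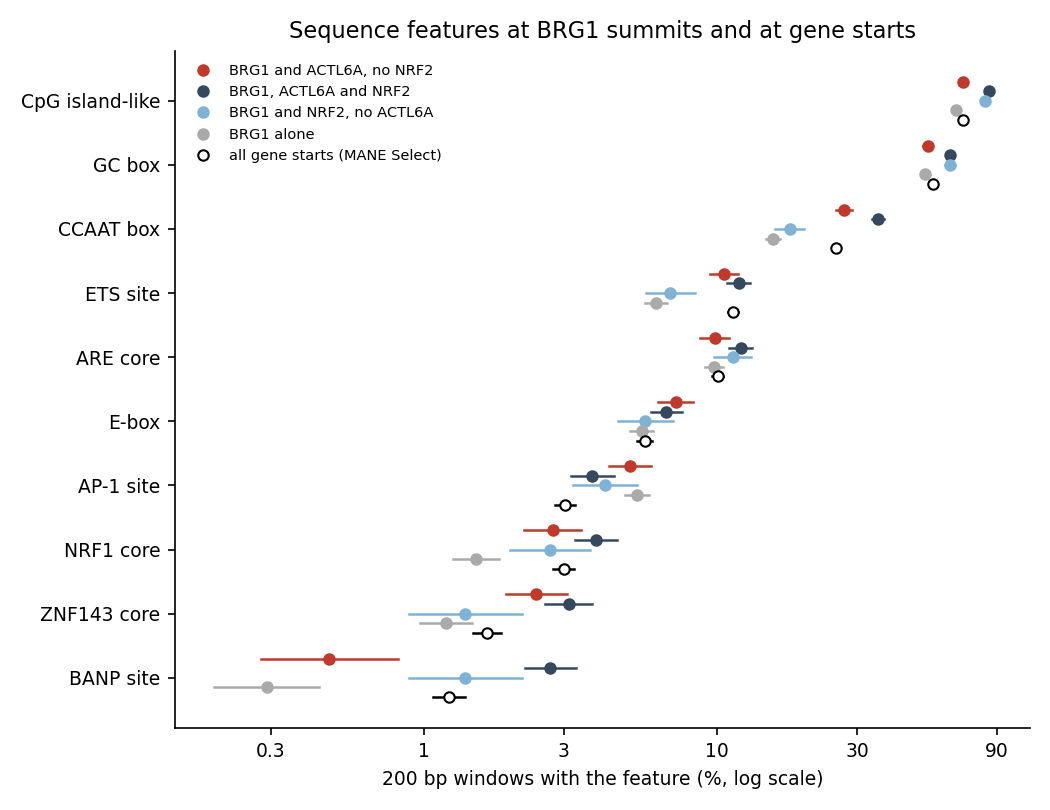
Share of 200 bp windows at BRG1 summits with each feature (x axis, percent, log scale) in the 4 classes and at all MANE Select gene starts, with 95% Wilson intervals as lines. The class without NRF2 was close to all gene starts for CpG island-like windows (68.7% and 69.0%) and the ARE core (9.81% and 10.0%) and below them for the BANP site (0.476% and 1.22%).

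Of the 22 motifs searched on both strands, CCAAT differed by the most percentage points between these promoters and those with BRG1 alone. A box lay within 200 bp of sequence at the summit in 741 promoters (27.1%, 25.5 to 28.8%), against 15.5% with BRG1 alone, which is 11.6 points more (9.81 to 13.5), and 17.7% at BRG1 and NRF2 promoters. With all 3 proteins the share was higher, 35.3% (33.8 to 36.9%), and over all gene starts it was 25.3%. The boxes clustered at the summit. In the 50 bp just downstream of the summit on the reference strand there were 10.5 boxes per 100 peaks, against 5.02 in the 50 bp farthest to the left, while peaks with BRG1 alone had 4.76 and 4.70. Relative to the TSS the boxes had a median place of 67 bp upstream, and 49.3% lay 40 to 160 bp upstream.

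The share of promoters with a box was higher at stronger BRG1 peaks. In the class it went from 18.9% (15.2 to 23.2%) at 10 or fewer fragments to 29.2% at 21 to 30 and 43.5% (34.6 to 52.9%) above 60. With NRF2 the same bins gave 21.2%, 30.5% and 42.0%, close to the class. In the other bins the class was lower, with 22.2% against 27.4% at 11 to 20 fragments, 32.8% against 37.4% at 31 to 40 and 35.8% against 42.2% at 41 to 60. With BRG1 alone the share also rose, from 12.8% at 10 or fewer fragments through 14.9% and 19.5% to 24.3% (20.3 to 28.8%) at 31 to 40, and it was 22.7% at 41 to 60 and 19.4% (9.19 to 36.3%) above 60, the last from 31 peaks. Windows of lower GC held the box more often, 40.6% of the class below 55% GC. Within windows of 65 to 70% GC the shares were 25.2% (22.2 to 28.5%) for the class, 31.7% with NRF2 and 12.4% (10.8 to 14.1%) with BRG1 alone, and the class was above BRG1 alone in each GC range tried except 75% and over, where the shares were 12.4% and 12.5%. The same letters in reverse order were found at 13.4% of the class, 13.1% of promoters with all 3 proteins and 9.84% with BRG1 alone.

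Some other promoter motifs followed a similar order, and others did not. The E-box (CACGTG) was highest in the class, at 7.21% against 6.71% with all 3 proteins and 5.52% with BRG1 alone. The HIF letters ACGTGC lay at 6.19%, 6.99% and 6.27% in the same classes. ETS sites lay at 10.6% of the class, 11.9% with all 3 proteins and 6.18% with BRG1 alone, a difference from the last of 4.40 points (3.16 to 5.72). Over all gene starts it was 11.3%. In each bin up to 40 BRG1 fragments the class was above BRG1 alone, with 11.2% against 6.78% at 21 to 30. At stronger peaks it was not, with 5.21% against 6.90% at 41 to 60 and 4.63% against 6.45% above 60, with overlapping intervals. NRF1 sites (GCATGCGC, the motif of nuclear respiratory factor 1, a gene distinct from NRF2) lay at 2.75% against 3.87% and 1.51%. The ZNF143 core (ACTACAA) lay at 2.42% against 3.12% and 1.19%. The BANP site (TCTCGCGA), which is bound only when free of DNA methylation, was rare in the class: it was found at 13 of 2732 promoters, 0.476%, against 1.22% of all gene starts, 0.291% with BRG1 alone and 2.69% with all 3 proteins, a difference of -2.22 points (-2.84 to -1.63). GC boxes also were fewer than with NRF2, 52.2% against 62.2%.

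The ARE core did not separate these promoters from those with BRG1 alone. It lay in 268 of 2732 windows (9.81%, 8.75 to 11.0%), in 9.74% with BRG1 alone, with a difference of 0.0716 points (-1.19 to 1.41), and in 10.0% of windows at all gene starts. With NRF2 present it was 12.0%, and the class minus these was -2.20 points (-3.74 to -0.634). By BRG1 signal the class was lower in each bin up to 40 fragments, with 9.14% against 12.7% at 31 to 40. At 41 to 60 fragments the shares were 11.5% for the class and 11.2% with NRF2, and above 60 they were 13.9% and 13.0%. The 95% intervals overlapped in every bin. The core includes the letters of some AP-1 sites, and each of its matches is also a match of the looser letters, found in 33.0% of the class. AP-1 sites lay at 5.05% (4.29 to 5.94%), 1.30 points above promoters with all 3 proteins (0.275 to 2.36), and the class minus BRG1 alone was -0.268 points (-1.19 to 0.742). Within the class they were found at 50 of 360 promoters (13.9%, 10.7 to 17.8%) whose summit was more than 500 bp from the TSS and at 3.71% (3.02 to 4.55%) of those closer. In windows that were not CpG island-like the share was 11.4% (9.49 to 13.8%) in the class and 9.81% (7.58 to 12.6%) with all 3 proteins. In CpG island-like windows it was 2.13% and 2.65%.

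Of 10 listed genes of the complex, of NRF2 and its regulator KEAP1 and of glutathione metabolism, 10 had a BRG1 peak at a TSS, 6 had a peak of the class, 3 had all 3 proteins and 4 had BRG1 and NRF2 without ACTL6A at some start. Over all genes 14.9% were in the class and 21.0% had all 3 proteins. GCLM, the modifier subunit of glutamate-cysteine ligase, had 48 BRG1 fragments against 1.74 expected (17.9-fold) but only 6 ACTL6A fragments against 0.337 and its summit upstream of the TSS, with the nearest NRF2 peak 29967 bp away. SLC7A11, the cystine importer, was weak for both, with 9 BRG1 and 7 ACTL6A fragments, and the nearest NRF2 peak was 772632 bp away. GCLC, the catalytic subunit of the ligase, had all 3 proteins at its main start, BRG1 and NRF2 at a second site, and a peak without NRF2 at the far upstream start, with 55 BRG1 fragments (18.1-fold) and 8 of ACTL6A. The main start had 25 BRG1 fragments and 8 of ACTL6A. NFE2L2, encoding NRF2, had 16 BRG1 and 10 ACTL6A fragments 502 bp upstream, 796 bp from an NRF2 peak, beside 2 peaks with BRG1 and NRF2 and 3 with BRG1 alone at other starts. SMARCA4 had 12 BRG1 and 8 ACTL6A fragments at an internal start, and its most upstream promoter peak, of 19 fragments, had BRG1 alone. GSS (glutathione synthetase) had all 3 proteins, GPX4 and KEAP1 had BRG1 and NRF2, and GSR, the glutathione reductase, had 58 BRG1 fragments and no ACTL6A or NRF2 peak.

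The epithelial lists held more genes of the class than genes with all 3 proteins, and BRG1 alone was the commonest class. Of 11 epithelial and gastric markers 5 had a peak of the class and 0 had all 3 proteins. EPCAM, an epithelial adhesion molecule, had 36 BRG1 and 11 ACTL6A fragments 14 bp upstream of an upstream start (chr2:47345030-47345353). ELF3, an epithelial ETS factor, had 35 and 13. The start shared by KRT18 and KRT8 had 42 BRG1 and 7 ACTL6A fragments, a further KRT8 start 39 and 12, and KRT19 15 and 10 at 743 bp downstream. EPCAM, KRT8, KRT18 and KRT19 also had peaks with BRG1 alone. Of these, an EPCAM peak of 31 fragments had its summit 24 bp upstream of a start farther downstream (chr2:47369083-47369513), and another had 21. KRT8 had 64, 22 and 20, the last shared with KRT18. KRT19 had 26 at 176 bp upstream. CDH1 (14 fragments), CLDN18 (4 fragments), GATA4 and GATA6 had BRG1 alone, KLF5 had BRG1 and NRF2, and HNF4A had no BRG1 peak at a TSS. Of a longer list of 30 epithelial genes 9 (30.0%, 16.7 to 47.9%) were in the class and 1 had all 3 proteins, against 14.9% and 21.0% of all genes, while 18 had BRG1 alone at some start. The highest by BRG1 -log10 q were JUP (plakoglobin, 85 BRG1 fragments), EPCAM and MUC1 (58 fragments). Of 55 keratin genes 6 were in the class (10.9%, 5.10 to 21.8%), led by KRT80 with 40 fragments, 9 had BRG1 alone and 0 had all 3. The interval includes the 14.9% of all genes. No BRG1 peak lay at a TSS of 44 of the keratin genes, and 20.0% had one, against 63.5% of all genes. Peaks do not measure expression, so these values say nothing of the level of the genes.

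Several lists of genes for basic cell functions had shares in the class above the 14.9% of all genes. The genes named for each are those with the highest BRG1 -log10 q, and a gene with several starts counts in each class. Mitochondrial ribosomal protein genes had 27 of 78 in the class (34.6%, 25.0 to 45.7%) and 24 with all 3 proteins. The highest were MRPL38 (98 BRG1 and 19 ACTL6A fragments), MRPL48 (43 and 19) and MRPL49 (47 and 21). Cytosolic ribosomal protein genes had 26 of 89 (29.2%, 20.8 to 39.4%) against 32 with all 3, led by RPL27 with 56 BRG1 fragments and RPL22L1 with 33, and DNA repair genes had 19 of 63 (30.2%, 20.2 to 42.4%) against 29, led by ERCC6 (32 fragments), a helicase of transcription-coupled repair, and by FANCB (32). Translation initiation factors had 17 of 56 against 25 and complex I genes 14 of 47 against 17, with EIF4A1, the cap-complex helicase, at 56 fragments and NDUFB7 at 32. Mediator had 10 of 30 against 7 with all 3, and peroxins, which build peroxisomes, 7 of 17 against 6, with PEX26 at 32 BRG1 fragments. Each of these lists was also above the 21.0% of all genes with all 3 proteins, from 23.3% for Mediator to 46.0% for DNA repair. These genes often have BRG1 of any kind: 94.9% of the mitochondrial ribosomal protein genes had a BRG1 peak at a TSS, against 63.5% of all genes. In the other lists this share ran from 86.5% (cytosolic ribosomal proteins) to 97.9% (complex I).

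Centrosome, spliceosome, mitosis, replication, stress and histone genes had all 3 proteins more often than they were in the class. All genes had the same order, at 21.0% and 14.9%. In the class the centrosome (26.2%), spliceosome (23.6%), mitosis (23.5%) and replication (23.5%) shares were above 14.9%. The stress (12.5%) and histone (5.80%) shares were below it. Of these 95% intervals, only those of the centrosome and histone genes left out 14.9%. Centrosome and cilium genes had 16 of 61 in the class and 37 with all 3 proteins, with B9D1, a transition zone protein, the highest of the class at 64 fragments. Spliceosome genes had 13 against 31 of 55, led by SF3B2 (57 fragments) and SF3B1 (37), mitosis genes 12 against 28 of 51, led by CENPH (26) and the kinesin KIF11 (32), and replication genes 12 against 23 of 51, led by POLD3 (83). The POLD3 peak was shared with LIPT2, whose TSS was the nearest to its summit. Genes of the unfolded protein and ATF4 response had 4 against 18 of 32, with PSAT1, an enzyme of serine synthesis, at 36 fragments and SESN2 at 30. Replication-dependent histone genes had 4 of 69 in the class, 17 with all 3 and 31 with BRG1 and NRF2 but no ACTL6A. HOX genes had 4 of 39 in the class and 1 with all 3 (HOXB9 the highest of the class at 48 fragments) and olfactory receptors 1 of 390 in both.

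Stress and lineage genes also had members, and the shares of AP-1 factors (12.5%), lineage factors (14.3%), Rab GTPases (14.8%) and solute carriers (15.1%) were near the 14.9% of all genes. Of 29 p53 and cell cycle genes 9 were in the class and 12 had all 3 proteins, led by GADD45A (80 BRG1 and 13 ACTL6A fragments), FDXR, a mitochondrial ferredoxin reductase (59 and 23), and PMAIP1, the BH3-only protein NOXA (46 and 10). The immediate early gene FOS had 48 BRG1 and 7 ACTL6A fragments, and it was 1 of 2 AP-1 factors in the class, of 16. Of 28 gastric and gut lineage factors 4 were in the class, led by SOX9 (35 and 12 fragments), ELF3 and SOX2 (13 and 5), and 15 had BRG1 alone. Aminoacyl-tRNA synthetases had 7 of 37 in the class, led by CARS1, which charges cysteine tRNA (64 and 19), and cyclins 7 of 27, led by CCNG2 (34 and 21). Among Rab GTPases, 9 of 61, RAB22A had 76 and 25 fragments on a window in which 85.7% of words recurred, and RAB5C, of early endosomes, had 70 and 21. Zinc finger genes had 105 of 508 (20.7%, 17.4 to 24.4%) against 160 with all 3, and solute carriers 51 of 337 (15.1%, 11.7 to 19.4%) against 45, led by SLC66A3 (70 and 19), SLC30A5, a zinc transporter (53 and 16), and SLC6A6, the taurine transporter (50 and 10).

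Genes of SWI/SNF itself and of the NRF2 program were split between classes, to be read against the 14.9% of all genes in the class. Of 29 SWI/SNF subunit genes 9 (31.0%, 17.3 to 49.2%) were in the class and 9 had all 3 proteins at a TSS, a gene with several starts counting in each. BRG1 of any kind was at a TSS of 28 of the 29 (96.6%), against 63.5% of all genes, and 18 had BRG1 alone at some start. In the class, the genes with the highest BRG1 -log10 q are named. The highest were ARID2, the PBAF subunit, with 53 BRG1 fragments, DPF1 (50) and SMARCD1 (24). Of 30 NRF2 target genes 7 (23.3%, 11.8 to 40.9%) were in the class, GCLC, GCLM and TALDO1 (51 BRG1 and 5 ACTL6A fragments, 262 bp from an NRF2 peak) being the highest, and 9 had all 3. The interval of the NRF2 targets includes 14.9%. Of 27 ferroptosis genes 3 (11.1%, 3.85 to 28.1%) were in the class and 7 had all 3, DHODH (26 fragments), SLC7A11 and AIFM2 (7).

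By chromosome, the share of BRG1 and ACTL6A promoter peaks that lacked NRF2 ran from 28.6% (22.5 to 35.5%) on chromosome 8 to 52.1% (47.4 to 56.8%) on chromosome 11 among the autosomes. On chromosome X it was 64.5% (56.7 to 71.6%), 100 of 155 peaks. How many copies of each chromosome SNU638 carries was not analysed here.

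The limits of the rule ran through a continuous range of values. GADD45A (1000 bp), LUZP1 (999 bp) and TMEM131L (997 bp) were the farthest members from a TSS, 34 lay in the last 100 bp, and 29 otherwise equal peaks lay in the next 100 bp, the closest at 1013 bp. DMBX1 and NCF1 shared 1 bp with their ACTL6A peak and LUZP1 shared 2. In all 27 shared at most 10 bp, and 11 promoters with BRG1 alone had an ACTL6A peak within 10 bp. NCF1 and CT45A2 have near-identical copies. SLC50A1, ANKAR and ASPM lay 5, 8 and 9 bp from an NRF2 peak, 25 members had one within 100 bp, and 17 promoters counted as having NRF2 shared at most 10 bp with it. The lowest -log10 q of a member was 1.402 for BRG1 (ATRX, TBC1D8B and CT45A2 among others, with 3 fragments) and 1.315 for ACTL6A (AMBRA1, RNF168 and NCF1 among others, with 4), and 156 members (5.71%) had an ACTL6A -log10 q under 2. No member shared a base with the IgG replicate 1 list, which holds 11 peaks and which the rule did not use.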

How the data were processed

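CUT&Tag of SNU638 cells gave 5 libraries, each deposited as a peak list. According to the paper's methods and the submitters' processing notes, the authors trimmed reads (fastp 0.23.0), mapped them to hg38 with BWA and called peaks with MACS2; HOMER 4.11 was also named. The control given to the caller is not given in the sources used here. Deposited columns are a score, the fold enrichment (a ratio with 1 added to both parts), -log10 p and -log10 q per peak, and the summit offset.

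Samples were grouped by the antibody in their labels. GENCODE release 44 supplied transcript starts. A script (Python 3.11.15, pandas 2.3.3, scipy 1.17.1, pysam 0.24.0) found the peaks by the rule, recovered summit fragments from fold and -log10 p as whole numbers under the caller's Poisson model (within 0.001, or 1 in 10000 of values above 10, for at least 99.1% of each list), and searched 22 motifs and base composition in 200 bp at each BRG1 summit. Code was tested on simulated data. Shares have Wilson and differences Newcombe 95% intervals, and no test was possible with 1 library per antibody.

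Genes were named by rule: the 10 highest members by BRG1 and by ACTL6A -log10 q, 10 genes of the complex, NRF2 and glutathione metabolism, 11 markers, up to 3 highest per family, the 3 nearest each limit of the rule, and for each motif the highest member whose printed stretch held it; some genes this rule names are not reported here. The repeat windows, the reversed letters, the GC ranges and the CCAAT alternatives were added after seeing the data. Members and lists were chosen with earlier results of these data known. Stretches of 60 to 160 bp came from hg38; none was read from libraries.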

Additional observations from a re-analysis of the deposited data

How the results depend on the processing

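The counts of peaks and genes, both shares of peaks, the ARE core, CpG island-like and CCAAT shares and the distance to the TSS were recomputed under alternatives. Of 78 values 42 stayed within 1.5 times a count or within the 95% interval of a share or median and 36 moved. No paired analysis was possible because no antibody has a second library. Leaving out IgG replicate 1 could not change any value, because the rule did not use that list, and its values count among the 42. Leaving out IgG replicate 2 gave 2735 peaks and 2945 genes. With -log10 q of at least 5 in every list, 51.5% of BRG1 and ACTL6A peaks lacked NRF2, the ARE core was at 11.8%, CpG island-like windows at 78.4%, CCAAT boxes at 35.2% and the median distance to the TSS was 99 bp (113 bp as reported). With the highest 5000 peaks of each list there were 687 peaks at 772 genes, 21.1% of BRG1 TSS peaks, and the same 5 values were 35.1%, 11.2%, 78.9%, 42.7% and 106 bp. Overlap of 50% of both peaks left 1357 peaks at 1508 genes, 8.95% of TSS peaks, 42.5% without NRF2, 61.3% CpG island-like and 29.3% with CCAAT. A TSS within 250 bp gave 19.4% of TSS peaks, 41.4% without NRF2, 74.9% CpG island-like, 93 bp and 29.0% with CCAAT. A TSS within 3 kb gave 47.2% without NRF2, 61.2% CpG island-like and 144 bp. MANE Select starts gave 41.4%, 74.9% and 139 bp. No NRF2 peak within 1 kb gave 16.98% of TSS peaks and 41.4% without NRF2. Over the whole BRG1 peak the ARE core was at 20.8%, CpG island-like windows at 73.2% and CCAAT at 42.0%, and TGANNNNGC was at 33.0%. The longer windows hold more matches by construction; for the other settings the cause was not tested.

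Limits are 1 library per antibody, no scaling by depth, a higher floor for NRF2 than for the other antibodies, and peaks that stand for called signal and not for absence.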
